A study of Mus musculus with 2 samples.

Results

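The Nr4a family comprises 3 orphan nuclear receptors, Nr4a1 (also called Nur77), Nr4a2 (Nurr1) and Nr4a3 (Nor1), which were taken by symbol from the 32285 genes of the matrices. Their transcripts were compared between neurons from the preoptic area (POA) of wild-type mice 6 to 9 weeks old that had received ultrasound (US+) and neurons from sham mice (US-). In the US+ library Nr4a1 and Nr4a3 were higher. Among 3 broad classes the ratio over US- was highest in nuclei with the genes of striatal projection neurons. It was 9.23 for Nr4a1 and 14.3 for Nr4a3 there. Among other GABAergic nuclei, those with Tshz1 and Foxp2 had a Nr4a1 ratio of 9.22 and those with Meis2 a Nr4a3 ratio of 9.38. Both populations also carried more of the striatal gene Rarb than other GABAergic nuclei as a whole. This did not hold for every striatal marker, as the dopamine receptor gene Drd2 was not higher in either. In glutamatergic nuclei Nr4a1 stood at nearly the same level in both libraries. Nr4a2 did not share this pattern over all nuclei, where its level was 2.56 CPM in US+ and 2.75 CPM in US- (CPM, counts per 1000000 counts of the same nuclei). It was highest in a population of GABAergic nuclei with Onecut2 in both libraries. Its counts were too low to compare in the populations where the other members had their highest ratios.

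Brains were collected about 1 h after ultrasound, and each group was 1 library made from the pooled tissue of 4 mice. About 25000 nuclei per group were sorted on NeuN, which marks the nuclei of neurons. The droplet assay counts each captured RNA once by a unique molecular identifier (UMI). As each group is 1 library, no difference has a replicate check or a p-value, the mice cannot be told apart within a library, and every value compares these 2 libraries. Intervals are exact 95% intervals of the UMI or nucleus counts and cover counting error only. Those of UMI counts treat UMIs as independent. As several can come from 1 nucleus, these intervals can be too narrow.

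Nuclear receptors are transcription factors that mostly answer to a ligand. The Nr4a receptors have no established ligand and are controlled mainly through how much of them is made. Nr4a1 and Nr4a3 are textbook immediate-early genes of neurons, transcribed within minutes of calcium entry and cAMP signalling without new protein synthesis. Nr4a2 can be induced in the same way, and it is in addition a lasting identity factor of midbrain dopamine neurons.

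On GRCm38 the 3 genes lie apart from one another. Nr4a1 spans chr15:101254269-101274795 on the forward strand, Nr4a2 chr2:57106830-57124003 on the reverse strand and Nr4a3 chr4:48045153-48086447 on the forward strand. No other gene of the GENCODE M21 annotation overlaps any of them on either strand, so their UMIs are not shared with an annotated neighbour.

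The 3 promoters had a sequence feature in common that played no part in the choice of genes. CREB, the transcription factor that cAMP and calcium activate, binds the cAMP response element (CRE) and its half-site TGACG. In the 250 bases before the RefSeq start site each gene had 4 half-sites, counted on both strands. Of 32851 mouse promoter windows of the same length, 17.8% held at least 1 half-site and 45, or 0.137%, held at least 4. These promoters are also rich in G and C, at 74.4% for Nr4a1, 80.0% for Nr4a2 and 63.6% for Nr4a3. Among the 6582 windows with at least as much G and C as that of Nr4a3, 25 (0.380%) held at least 4 half-sites. The half-site nearest to the start and the farthest one are shown for each gene with 7 bases on either side, read along the strand of the gene. Capitals mark the half-site, either TGACG or its reverse complement CGTCA, and the number is the position of its first base relative to the start.
Nr4a1 at -40: ctccatgCGTCAcggagcg
Nr4a1 at -233: ctccctgCGTCAatggaac
Nr4a2 at -111: gggccgcTGACGcgcttgg
Nr4a2 at -200: aggccggCGTCActggcag
Nr4a3 at -147: gcataaaTGACGtgccgag
Nr4a3 at -231: aggagggTGACGtagcgtc

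The 2 Nr4a1 windows are chr15:101266799-101266817 and chr15:101266606-101266624, and both lie in an intron of the annotated gene, as longer transcripts start further upstream. Those of Nr4a2, chr2:57124103-57124121 and chr2:57124192-57124210, lie upstream of the gene. For Nr4a3, chr4:48045151-48045169 overlaps an untranslated exon of an annotated transcript and chr4:48045067-48045085 lies upstream of the gene. The full element TGACGTCA, which would count as a pair of half-sites, was in none of the 3 stretches and in 1.55% of all windows. A MEF2 site was found once, in the Nr4a2 stretch, and in 2.92% of windows. The CArG box of SRF (1.47% of windows), the EGR site GCGTGGGCG (0.536%) and NBRE AAAGGTCA, the element that Nr4a receptors bind themselves (1.34%), were not found in any of the 3. These letters describe the stretches and show no binding.

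**Figure D1:**
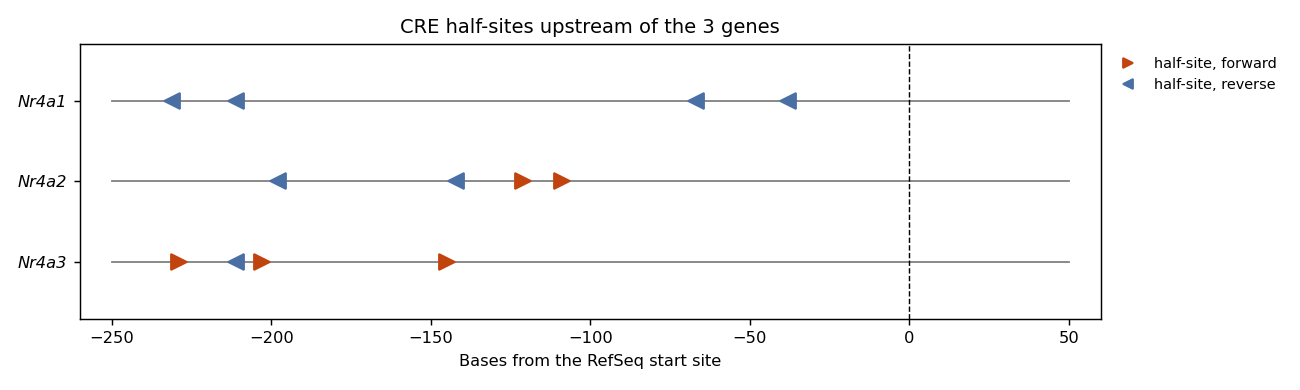
Positions of the CRE half-sites (triangles, pointing right for the forward and left for the reverse orientation along the gene) in the window of each gene, in bases from the RefSeq start site (dashed line at 0). Each gene has 4 half-sites upstream of its start, all of them reverse in Nr4a1.

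The filter left 11899 US+ nuclei (86741549 UMIs, median 6440) and 11663 US- nuclei (99537709 UMIs, median 7334). Of the US+ nuclei 10.8% had fewer than 1000 UMIs, against 3.12% of US- nuclei. Across both files, 29 of 23800 barcodes occurred in both libraries. All 8 markers of the preoptic hypothalamus were detected in each library, summing to 274 CPM in US+ against 173 CPM in US-, and 10 of 10 markers of striatal projection neurons were found too, summing to 1112 CPM in US+ against 1759 CPM in US-. Astrocyte markers summed to 94.9 CPM in US+ against 55.2 CPM in US-, and oligodendrocyte markers to 105 CPM in US+ against 58.3 CPM in US-, with each of the 6 markers of either list detected, and their part in the differences was not tested.

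Nuclei were sorted into classes by marker UMIs. Striatal-type nuclei had at least 2 UMIs of Rarb, the retinoic acid receptor of the striatum, and at least 1 of the dopamine receptors Drd1 or Drd2. There were 592 in US+ (4.98% of nuclei, median 10506.5 UMIs) and 2022 in US- (17.3%, median 9182.5 UMIs). Other GABAergic nuclei carried Gad1 or Gad2, the enzymes that make GABA, and no Slc17a6, the vesicular glutamate transporter of the hypothalamus, and numbered 6293 in US+ and 6523 in US-. Glutamatergic nuclei carried Slc17a6 and neither Gad gene and numbered 928 in US+ and 734 in US-. The remaining 4086 US+ and 2384 US- nuclei were in no class. The summed striatal markers of striatal-type nuclei were 3408 CPM in US+ and 3943 CPM in US-. Those of other GABAergic nuclei were 929 CPM in US+ and 1199 CPM in US-. The list includes Rarb, Drd1 and Drd2, which define the class, so part of this excess was fixed in advance. Each other marker of the list was also higher in striatal-type nuclei in both libraries. Pde10a, for instance, had 1527 CPM in US+ and 1634 CPM in US-, against 653 CPM in US+ and 775 CPM in US- in other GABAergic nuclei.

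Nr4a1 had 1788 UMIs in US+ and 995 UMIs in US- over all nuclei, or 20.6 CPM (19.7 to 21.6) in US+ and 10.0 CPM (9.38 to 10.6) in US-. The ratio of US+ over US- was 2.06 (1.91 to 2.23), and that of Nr4a3 was also above 1.5 while that of Nr4a2 was not. Thus 2 of the 3 members were past 1.5-fold, in a comparison in which 7.99% of 20194 genes with at least 50 UMIs were higher by that much. With the classes given equal weights in both libraries, which takes out the unequal share of striatal-type nuclei, the Nr4a1 ratio was 2.48.

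In striatal-type nuclei Nr4a1 reached 74.0 CPM (548 UMIs) in US+ against 8.02 CPM (175 UMIs) in US-, a ratio of 9.23 (7.77 to 11.0). Both members with at least 50 UMIs in this class, Nr4a1 and Nr4a3, were past 1.5-fold, as were 6.38% of 14680 genes in the higher direction. By ratio, Nr4a3 was number 5 and Nr4a1 number 15 of these genes. Striatal-type nuclei were 4.98% of US+ nuclei and held 30.6% of the Nr4a1 UMIs of that library. In US- they were 17.3% of nuclei and held 17.6% of its Nr4a1 UMIs. In US-, where these nuclei held 21.9% of the UMIs of all genes, Nr4a1 was thus not concentrated in this class.

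Markers also differed between the libraries within striatal-type nuclei. All 8 preoptic markers were found and summed to 141 CPM in US+ against 77.0 CPM in US-, all 6 oligodendrocyte markers to 79.0 CPM in US+ against 43.0 CPM in US-, and the glutamatergic markers, with Slc17a7 at 0 in both, to 14.0 CPM in US+ against 6.69 CPM in US-. Drd2 stood at 79.4 CPM in US+ against 139 CPM in US-, and the adenosine receptor gene Adora2a at 23.8 CPM in US+ against 45.5 CPM in US-. Penk, the enkephalin precursor gene and another striatal marker, went the other way, at 242 CPM in US+ against 133 CPM in US-. The part of these markers in the Nr4a ratios was not tested. In nuclei of the class with Slc17a6 at 0, a choice made after the values were seen, the ratio was 10.7 for Nr4a1 and 14.9 for Nr4a3.

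Other GABAergic nuclei differed less. Nr4a1 stood at 17.2 CPM (870 UMIs) in US+ and 11.2 CPM (631 UMIs) in US-, a ratio of 1.53 (1.38 to 1.70), with 5.53% of 18731 genes past 1.5-fold in that direction and 2.82% in the other. Here 2 of the 3 members were past it, Nr4a1 only just. From summed UMIs this ratio rests on a few populations described further on. Without them it was 0.944 (0.832 to 1.07), an exclusion chosen after the values were seen. With every nucleus weighted equally, the class ratio was higher. In nuclei of the class that fell in no marker population it was then above 1, so its direction there is not settled. In glutamatergic nuclei Nr4a1 stood at 10.9 CPM (80 UMIs) in US+ and 10.5 CPM (64 UMIs) in US-. That ratio, 1.04, has an interval of 0.739 to 1.47, so that 1 of the members could be compared here and it was not past 1.5-fold, as against 3.27% of 13495 genes higher and 1.99% lower.

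Nr4a3, the other strongly inducible member, had 703 UMIs in US+ and 213 UMIs in US- over all nuclei, or 8.10 CPM (7.52 to 8.73) in US+ and 2.14 CPM (1.86 to 2.45) in US-, a ratio of 3.79 (3.24 to 4.44), and 5.02 with equal class weights. In striatal-type nuclei it reached 38.0 CPM (281 UMIs) in US+ against 2.66 CPM (58 UMIs) in US-. The ratio there was 14.3 (10.7 to 19.3), the largest of the 9 class ratios that could be given for the 3 genes. Leaving out the 1% of nuclei with the most UMIs of the gene, which by construction removes many of the few positive nuclei, gave 47.0 in this class, 11.7 over all nuclei and 8.16 in other GABAergic nuclei. Striatal-type nuclei held 40.0% of the Nr4a3 UMIs in US+ and 27.2% in US-. In other GABAergic nuclei Nr4a3 had 6.42 CPM in US+ and 1.99 CPM in US-, a ratio of 3.23 (2.60 to 4.04). In glutamatergic nuclei 9 UMIs in US+ and 14 UMIs in US- were too few to compare. The nuclei in no class were higher in US+ as well, with ratios of 1.65 (1.34 to 2.06) for Nr4a1 and 2.16 (1.41 to 3.42) for Nr4a3. They held 16.2% of the Nr4a1 UMIs in US+ and 12.6% in US-.

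Nr4a2, the third member, had 222 UMIs in US+ and 274 UMIs in US- over all nuclei, a ratio of 0.930 (0.775 to 1.11). Other GABAergic nuclei held 76.6% of its UMIs in US+ and 75.2% in US-, and its level in them was 3.36 CPM in US+ and 3.65 CPM in US-, a ratio of 0.919 (0.745 to 1.13). Only 6 UMIs in US+ and 22 in US- came from striatal-type nuclei, or 0.810 CPM in US+ and 1.01 CPM in US-, with overlapping intervals. At this depth the class in which the other members had their largest ratios showed no detectable difference in Nr4a2. When every nucleus was given the same weight, whatever its depth, the ratio over all nuclei was 1.18, so that its direction is not settled.

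**Figure D2:**
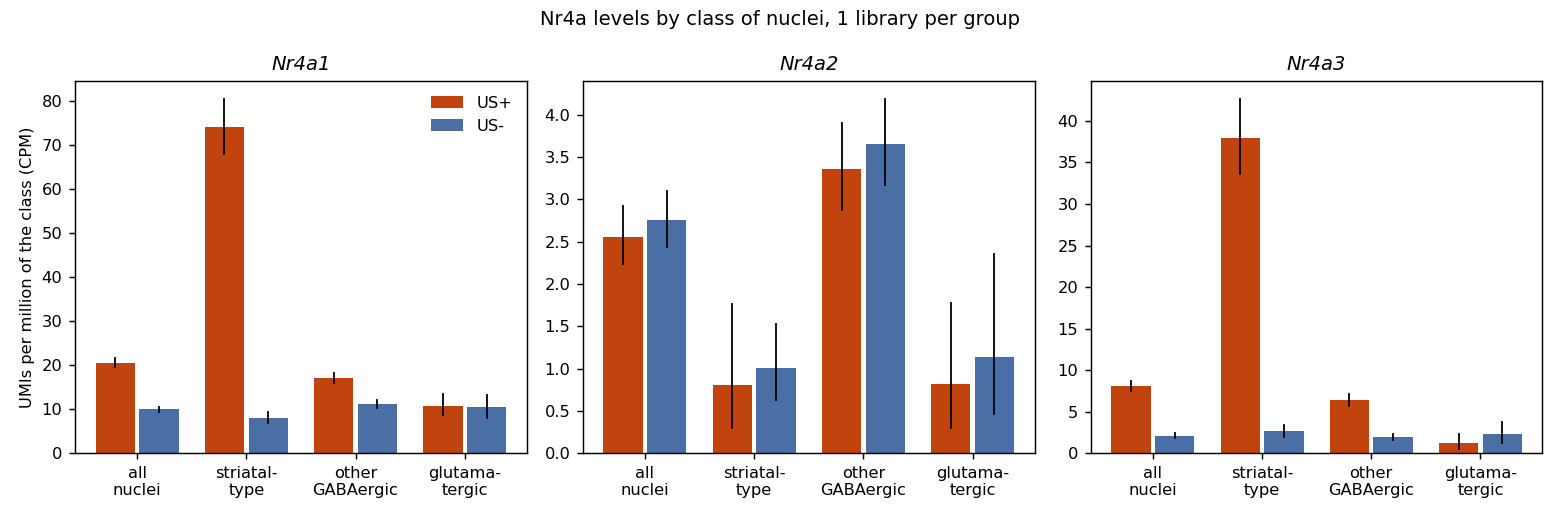
CPM of the class (vertical axes, each with its own scale) of the 3 genes in all nuclei and in the 3 classes, for US+ (orange, left bar) and US- (blue, right bar), 1 library each, with exact 95% Poisson intervals as lines. In the panels of Nr4a1 and Nr4a3 the US+ striatal-type bar stands above all others, at 74.0 CPM for Nr4a1 and 38.0 CPM for Nr4a3, while the Nr4a2 intervals of the libraries overlap in every class shown.

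A larger share of striatal-type nuclei carried Nr4a1 or Nr4a3 in US+, and a larger share held several UMIs of them. Before thinning, 279 of 592 striatal-type nuclei had a Nr4a1 UMI in US+ and 133 of 2022 in US-. Of these nuclei 11.7% in US+ and 0.445% in US- held 3 or more UMIs of Nr4a1, and the highest single nucleus held 9 in US+ and 6 in US-. For Nr4a3, 3 or more UMIs were in 5.74% of these nuclei in US+ against 0.247% in US-. A single higher mean raises both kinds of share, so they are not separate features. These counts were not matched for depth, the median being 10506.5 UMIs in US+ and 9182.5 UMIs in US-.

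**Figure D3:**
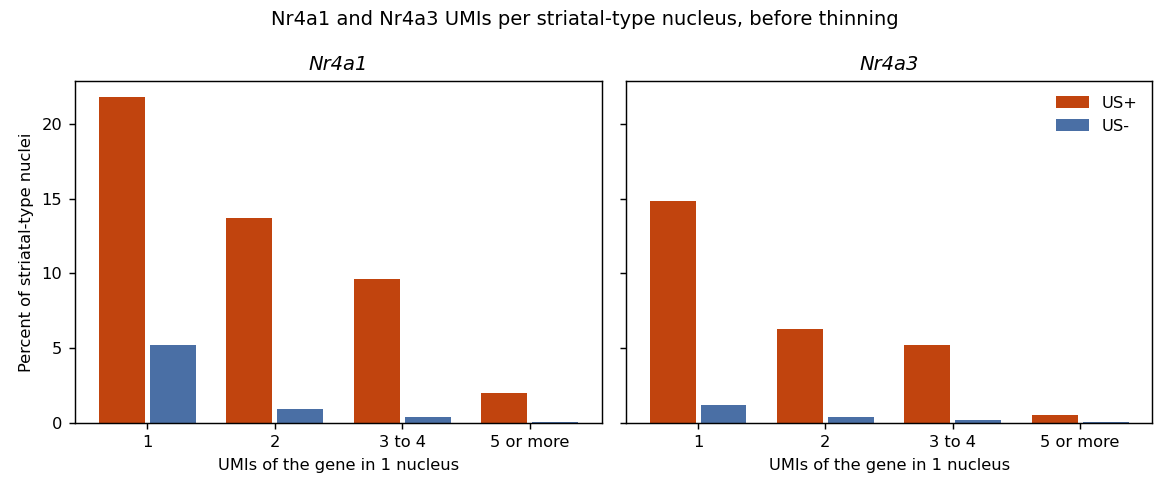
Percent of striatal-type nuclei (vertical axis) with 1, 2, 3 to 4, or 5 or more UMIs of Nr4a1 (left) and Nr4a3 (right), before thinning, for US+ (orange, left bars, 592 nuclei) and US- (blue, right bars, 2022 nuclei). In each bin of both genes the US+ bar is the taller one.

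Because nuclei differed in depth, each was thinned at random to 2000 UMIs and shallower ones were left out, which removed 5 striatal-type nuclei from each library. Nr4a1 was then found in 16.5% (13.6 to 19.8) of US+ and 1.64% (1.13 to 2.29) of US- striatal-type nuclei, and Nr4a3 in 8.01% (5.94 to 10.5) of these in US+ and 0.496% (0.238 to 0.910) in US-. In other GABAergic nuclei, where 461 US+ and 174 US- nuclei were left out, the share with Nr4a1 was 3.29% in US+ and 2.30% in US-, and with Nr4a3 1.22% in US+ and 0.362% in US-. Glutamatergic nuclei, of which 62 US+ and 21 US- were left out, gave 2.19% for Nr4a1 in US+ and 2.38% in US-, and for Nr4a3 0.115% in US+ and 0.561% in US-. RNA free in the droplets gives some UMIs to every nucleus. Glutamatergic nuclei are neurons that may transcribe both genes themselves, so their share is no measure of free RNA. It comes from nuclei with median depths of 7897.5 UMIs in US+ and 7763 UMIs in US-. In US- it rests on 17 nuclei for Nr4a1 and 4 for Nr4a3. At 2000 UMIs the US- shares of both genes in the other classes lay below the glutamatergic share. This order did not hold at 4000 UMIs, where Nr4a1 was in 3.98% of other GABAergic and 2.89% of glutamatergic US- nuclei. Nr4a3 was then in 0.728% of other GABAergic and 0.304% of glutamatergic US- nuclei. Because the classes compared may all transcribe these genes, the comparison cannot decide whether the US- UMIs came from free RNA. Median depths were 10550 UMIs in US+ and 9211 UMIs in US- for striatal-type nuclei, and 7538 UMIs in US+ and 7689 UMIs in US- for other GABAergic nuclei.

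Nuclei with oligodendrocyte markers, taken as the comparison for free RNA, were too few to set a level for it. Whether they transcribe these genes themselves was not tested. At 2000 UMIs Nr4a1 was in 0 of 35 such nuclei in US+, and in 0 of 16 in US-. Taking 3 nuclei as the limit that a count of 0 allows, these permit shares of up to 8.57% in US+ and 18.8% in US-, and the exact upper limits are 10.0% in US+ and 20.6% in US-. At 1000 UMIs 1 of 55 such nuclei in US+ and 0 of 20 in US- had Nr4a1. The nuclei counted had median depths of 5235 UMIs in US+ and 3303 UMIs in US- before thinning. The thinned share with Nr4a2 in other GABAergic nuclei was 0.686% (0.490 to 0.933) in US+ and 0.599% (0.424 to 0.821) in US-, with no detectable difference between libraries. In glutamatergic nuclei it was 0.115% in US+ and 0.140% in US-.

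The classes were divided further by marker UMIs, which gave 16 populations with at least 50 nuclei in each library, 2 of them striatal-type, 10 other GABAergic and 4 glutamatergic. In US+ the order of the Nr4a1 levels was led by nuclei with Tshz1 and Foxp2, both of them transcription factor genes, at 98.9 CPM (82.8 to 117), and by striatal-type nuclei with Drd1 only at 85.9 CPM (77.1 to 95.3). These neighbours did not differ beyond their intervals. Next came nuclei with Drd2 only at 58.9 CPM (50.5 to 68.3) and other GABAergic nuclei with Meis2, a homeobox gene, at 50.7 CPM (44.5 to 57.5), which likewise overlapped. The other 12 populations followed between 5.89 and 15.2 CPM, each overlapping the next. In US- there was no such split: the levels ran between 5.53 and 22.4 CPM, and every population overlapped the next.

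Set against US-, the same 4 populations had the highest ratios of Nr4a1. Nuclei with Drd1 only, the receptor gene of the direct striatal pathway, had 85.9 CPM in US+ against 6.25 CPM in US-, a ratio of 13.7 (10.6 to 18.0). Those with Drd2 only, the receptor gene of the indirect pathway, had 58.9 CPM in US+ against 9.62 CPM in US-. The ratio was 6.12 (4.70 to 8.03), and its interval lay below that of the Drd1 nuclei. Both names rest on receptor UMIs, and the pathway of these nuclei was not tested. The Tshz1 and Foxp2 nuclei, 143 in US+ and 378 in US-, had 98.9 CPM in US+ against 10.7 CPM in US-, a ratio of 9.22 (6.23 to 14.0), and there Nr4a1, the 1 member with enough UMIs, was past 1.5-fold along with 5.45% of 9285 genes (6.6% were lower by as much). The Meis2 nuclei, 610 in US+ and 1216 in US-, had 50.7 CPM in US+ against 8.85 CPM in US-, a ratio of 5.73 (4.45 to 7.44). In them both members with at least 50 UMIs were past 1.5-fold, against 3.77% of 13168 genes in the higher direction and 5.98% in the lower.

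In 6 further populations with enough UMIs, Nr4a1 ratios were lower, and in 5 of them the interval included 1. Other GABAergic nuclei with Lhx8 gave 1.19 (0.838 to 1.67), with Lhx6 1.02 (0.676 to 1.53) and with the estrogen receptor Esr1 0.955 (0.633 to 1.46). Galanin nuclei, the remaining one, had 26 Nr4a1 UMIs in 294 US+ nuclei, or 9.86 CPM, and 28 UMIs in 144 US- nuclei, or 22.4 CPM, a ratio of 0.441 (0.248 to 0.779).

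For Nr4a3 the order in US+ was Drd1 only at 38.3 CPM, Drd2 only at 37.7 CPM, Meis2 at 32.0 CPM and Tshz1 and Foxp2 at 25.8 CPM, each overlapping the next, and the other 12 populations lay at or below 4.57 CPM. The ratios were 19.2 (12.3 to 31.1) for Drd1 only, 10.7 (7.16 to 16.6) for Drd2 only and 9.38 (6.38 to 14.2) for Meis2. The Drd1 and Drd2 intervals overlapped for this gene. With 35 UMIs in US+ and 11 in US-, the Tshz1 and Foxp2 nuclei had too few for a ratio. From summed UMIs, and unlike Nr4a1, Nr4a3 was also higher in the other GABAergic nuclei that remained without the Meis2 and the Tshz1 and Foxp2 populations. It stood there at 3.06 CPM (136 UMIs) in US+ and 1.57 CPM (69 UMIs) in US-. This ratio was 1.95 (1.45 to 2.65), and 5.59% of 18289 genes were past 1.5-fold there in the higher and 2.71% in the lower direction, with Nr4a3 the 1 member among the higher ones and none among the lower.

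Nr4a2 was highest in the other GABAergic nuclei with Onecut2, a transcription factor gene, at 13.8 CPM (9.96 to 18.5, 43 UMIs) in US+ and 21.6 CPM (15.6 to 29.2, 42 UMIs) in US-. In each library this level stood clear of the next population, the remaining other GABAergic nuclei, at 4.46 CPM in US+ against 6.40 CPM in US-. The ratios were 0.637 (0.407 to 0.999) and 0.697 (0.522 to 0.927), lower in US+ in both. The share of Onecut2 nuclei with Nr4a2 hardly differed, at 7.36% (22 nuclei) in US+ and 7.25% (14 nuclei) in US-, and with every nucleus weighted equally the ratios were 0.866 for Onecut2 and 0.829 for the remaining nuclei. Galanin nuclei held no Nr4a2 UMI in either library, and the population that led for Nr4a2 was not among the first 4 for either of the other genes in US+. Those 4 populations held too few Nr4a2 UMIs for a ratio. Meis2 nuclei had 10 in US+ and 3 in US-, or 2.08 CPM (0.996 to 3.82) and 0.320 CPM (0.0660 to 0.935). Drd1 only nuclei had 2 in US+ and 16 in US-, Drd2 only nuclei 4 in each library, and Tshz1 and Foxp2 nuclei 4 in US+ and 5 in US-.

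**Figure D4:**
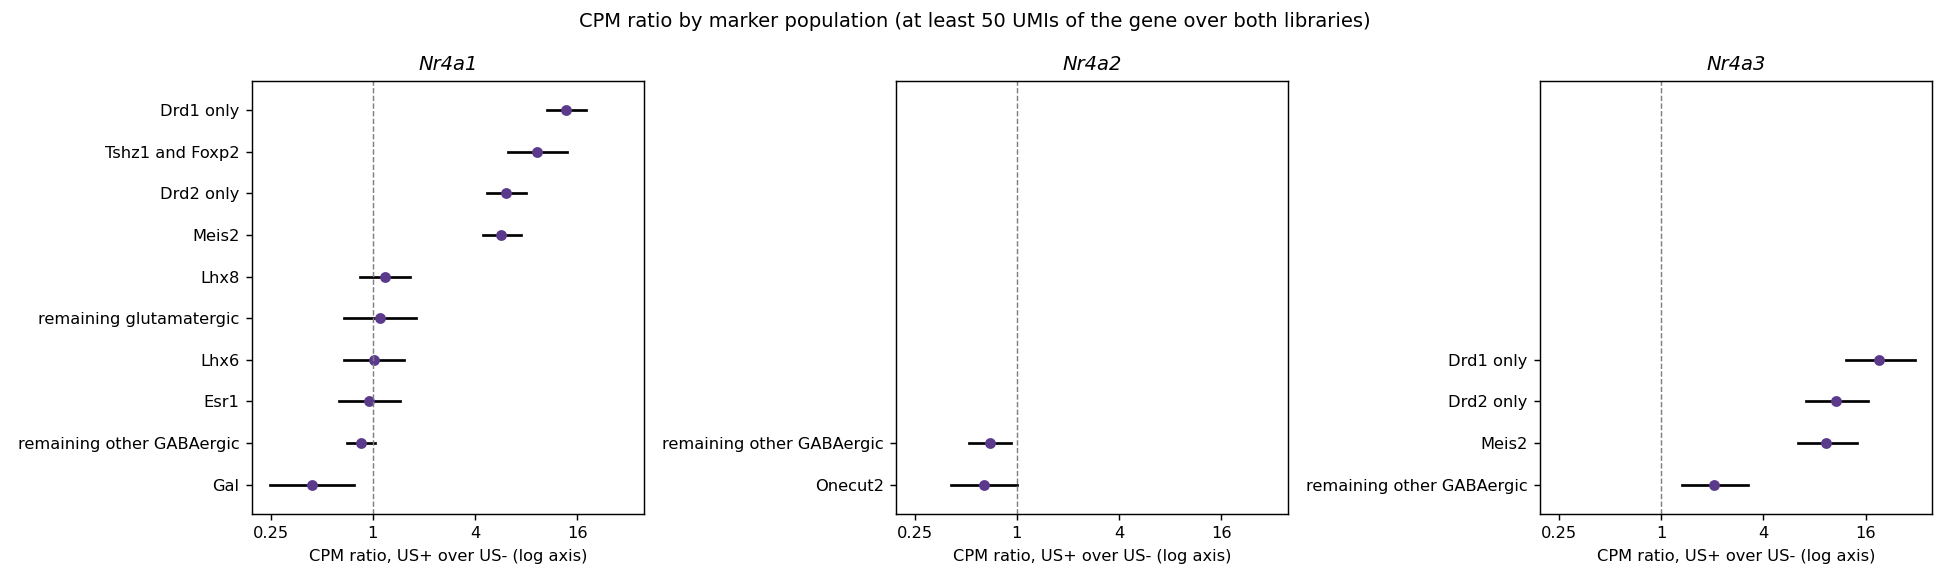
CPM ratio of US+ over US- (horizontal log axis) of Nr4a1, Nr4a2 and Nr4a3 in marker populations with at least 50 nuclei per library and at least 50 UMIs of the gene, with exact 95% intervals as lines and 1 as a dashed line. For Nr4a1 the 4 populations with the highest ratios lie between 5.73 and 13.7 and the other 6 between 0.441 and 1.19, and both Nr4a2 points lie below 1.

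Nr4a1 and Nr4a3 were often found in the same nuclei in US+. Before thinning, 18.75% of US+ and 0.643% of US- striatal-type nuclei held both, and 55.7% of US+ and 8.11% of US- held at least 1 of the 3 genes. Deep nuclei favour such pairs, so the pairs were also counted after thinning to 5000 UMIs. In US+ other GABAergic nuclei Nr4a3 was then in 13.7% (10.1 to 17.9) of 322 nuclei with Nr4a1 and in 1.68% (1.31 to 2.11) of 4235 nuclei without it. In US- it was in 6.30% (3.57 to 10.2) of 238 nuclei with Nr4a1 and in 0.402% (0.242 to 0.627) of 4725 without. Among US+ striatal-type nuclei, where both genes were common, the shares were closer, at 20.4% (14.4 to 27.5) of 157 with and 14.6% (11.2 to 18.5) of 384 without Nr4a1, and the intervals overlapped. Nr4a2 was in 1.86% (0.687 to 4.01) of US+ other GABAergic nuclei with Nr4a1 and in 1.37% (1.04 to 1.77) of those without, and these intervals overlapped too.

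Other activity-induced genes were also more frequent in US+ other GABAergic and striatal-type nuclei with Nr4a1, to a degree that varied by class and gene. Npas4, a transcription factor gene that answers to calcium entry in neurons, was in 35.7% (30.5 to 41.2) of US+ other GABAergic nuclei with Nr4a1 and in 7.63% (6.85 to 8.47) of those without. The same shares for Fosb, an AP-1 subunit, were 20.5% (16.2 to 25.3) and 2.38% (1.95 to 2.89), and for Arc, which acts at synapses, 17.7% (13.7 to 22.3) and 2.13% (1.71 to 2.61). In US+ striatal-type nuclei Npas4 was in 73.9% (66.3 to 80.6) with and 47.1% (42.1 to 52.3) without Nr4a1. Arc there was in 29.3% (22.3 to 37.1) with and 11.5% (8.45 to 15.1) without. Fos was in 15.9% (10.6 to 22.6) with and 10.9% (8.00 to 14.5) without, and these intervals overlapped. In US+ glutamatergic nuclei, 38 with and 683 without Nr4a1, the intervals overlapped for each early gene counted. Npas4, for instance, was in 2.63% of those with and 3.81% of those without. In other GABAergic nuclei early genes went with Nr4a3 as well, Fosb being in 34.8% (26.1 to 44.2) of 115 US+ other GABAergic nuclei with Nr4a3 and in 2.86% (2.39 to 3.39) of 4442 without. In US+ striatal-type nuclei this varied by gene: Npas4 was in 72.7% (62.2 to 81.7) of 88 nuclei with Nr4a3 and 51.4% (46.7 to 56.1) of 453 without, whereas Junb was in 29.5% (20.3 to 40.2) with and 29.8% (25.6 to 34.2) without, and Arc in 17.0% (9.87 to 26.6) with and 16.6% (13.3 to 20.3) without. As all nuclei of a library share their source, these shares describe the library. Other GABAergic nuclei also mix populations with high and low Nr4a1 and Nr4a3 levels in US+, which by itself makes early genes coincide across the class. Co-detection within single populations, also that of Nr4a1 with Nr4a3, was not tested.

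**Figure D5:**
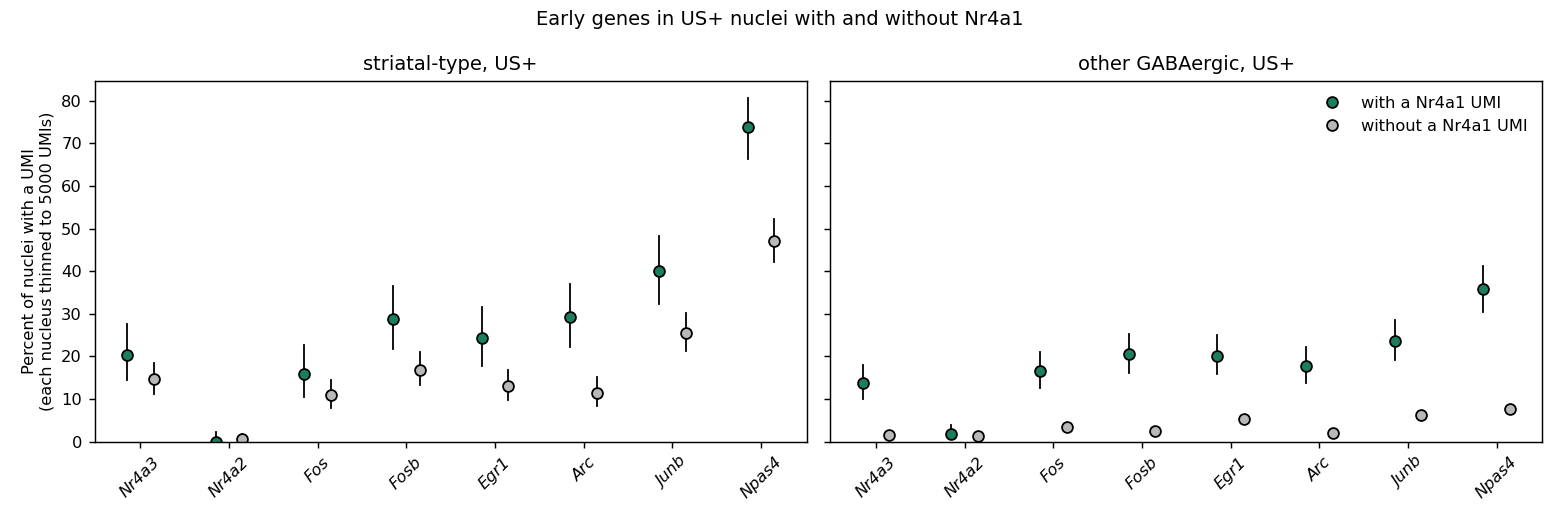
Percent of US+ nuclei with a UMI of each gene on the horizontal axis (vertical axis, each nucleus thinned to 5000 UMIs), among nuclei with (green, left) and without (grey, right) a Nr4a1 UMI, in striatal-type nuclei and in other GABAergic nuclei, with exact 95% binomial intervals. In other GABAergic nuclei each early gene other than Nr4a2 was more frequent beside Nr4a1, as for Npas4 at 35.7% with and 7.63% without.

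The genes around the Nr4a family were read as lists by role, each over the members with at least 50 UMIs in both libraries together. Of 20 other early genes, all 20 were above a ratio of 1 over all nuclei and 15 were past 1.5-fold (7.99% of all genes), with a median log2 ratio of 1.00, against a median of 0.06 over all genes. The highest were Fosb, at 13.0 CPM in US+ against 0.653 CPM in US- with a ratio of 19.9 (15.5 to 26.0), and Egr4, a zinc finger gene, with a ratio of 6.32 (5.24 to 7.68). At the low end stood Dusp1, a MAP kinase phosphatase gene, at 1.26 (1.10 to 1.45) and Crem, a CREB relative, at 1.14 (1.08 to 1.20). In striatal-type nuclei 16 of 17 were past 1.5-fold against 6.38% of all genes, with a median log2 ratio of 2.80 (-0.07 over all genes). In other GABAergic nuclei 12 of 20 were, against 5.53% of all genes, with a median of 1.01. In glutamatergic nuclei 1 of 11 was higher and 1 lower, against 3.27% and 1.99% of all genes, with a median of -0.05. By their medians the early genes had the order of classes seen in the Nr4a1 ratios.

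The upstream machinery of calcium, CREB, MEF2 and SRF was read next. None of its 20 genes was past 1.5-fold over all nuclei, where 7.99% of all genes were higher and 3.31% lower by that much, so the count is near the background. Their median log2 ratio was -0.08. The highest were Srf at 1.28 (1.05 to 1.55) and Hdac4, a MEF2 repressor gene, at 1.08 (1.04 to 1.11). The lowest were Ppp3ca, a calcineurin subunit gene, at 0.778 (0.769 to 0.786) and the kinase gene Camk4 at 0.771 (0.755 to 0.786). In striatal-type nuclei 3 were higher and 1 lower past 1.5-fold, where the background was 6.38% of genes higher and 8.88% lower. The higher ones were Srf, at 6.35 CPM in US+ against 3.02 CPM in US- with a ratio of 2.10 (1.41 to 3.10), Hdac5 (1.57) and Mef2c (1.50), and the lower one was the kinase gene Camk2a (0.571).

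Partners of the receptors form the next list. Nr4a1 and Nr4a2 can pair with retinoid X receptors, and Nr4a2 can recruit the CoREST corepressor complex, of which Rcor1 and Hdac1 encode parts. None of 12 such genes was past 1.5-fold over all nuclei, near the background of 7.99% higher and 3.31% lower (median log2 ratio 0.04), with Rxra at 1.11 (0.995 to 1.25) and Hdac1 at 1.07 (1.02 to 1.13) at the upper end and Rcor1 at 0.866 (0.832 to 0.901) and Rxrg at 0.766 (0.715 to 0.821) at the lower. In striatal-type nuclei 1 of 11 was lower, next to 8.88% of all genes, namely Rxrg, at 18.4 CPM in US+ against 35.4 CPM in US-, a ratio of 0.519 (0.429 to 0.623).

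Of 12 genes named as Nr4a targets in other tissues, 11 could be read over all nuclei, where 3 were higher and 1 was lower past 1.5-fold (median log2 ratio 0.25), next to a background of 7.99% higher and 3.31% lower. Vip, a neuropeptide gene of the suprachiasmatic nucleus, gave 2.92 (2.57 to 3.33), Aldh1a1, an enzyme of retinoic acid synthesis, 2.11 (1.79 to 2.50) and Ddc, which completes dopamine synthesis, 1.51 (1.42 to 1.60). The libraries also differ in their cell types: nuclei assigned by Vip and Vipr2 numbered 11 in US+ and 1 in US-. The part of cell types in these ratios was not tested. Th, the rate-limiting enzyme of dopamine synthesis and the best known Nr4a2 target of midbrain neurons, had 3.48 CPM in US+ and 3.59 CPM in US-, a ratio of 0.971 (0.830 to 1.13). Drd2, at 0.368 (0.344 to 0.393), helps define the striatal-type class and was low along with the share of those nuclei. In striatal-type nuclei 2 of 7 were higher, Vip (2.06) and the enkephalin precursor gene Penk (1.81), and 1 was lower, Drd2, next to 6.38% of all genes higher and 8.88% lower.

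Among 45 other nuclear receptors, 39 could be read over all nuclei, and 6 were higher and 1 was lower past 1.5-fold, next to 7.99% and 3.31% of all genes, with a median log2 ratio of -0.01. The highest were Nr2f2 (COUP-TFII) at 2.11 (1.96 to 2.27) and the estrogen receptor Esr2 at 2.06 (1.79 to 2.37). The lowest were Nr1h4, the bile acid receptor, at 0.746 (0.537 to 1.03) and Rarb, which the class rule uses, at 0.382 (0.375 to 0.389). In striatal-type nuclei 5 of 31 were higher and 4 lower, next to 6.38% and 8.88% of all genes, with a median of -0.25. The median of all genes was 0.06 over all nuclei and -0.07 in striatal-type nuclei.

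Over the 16 populations and both libraries, 32 points in all, the genes with the profile most like each member were named from 12311 genes with at least 1000 UMIs, by Pearson's r of log2(CPM + 1). For Nr4a1 these were Rheb (0.91), Mir670hg, Npas4 (0.89), Soat1 and Sik2, and for Nr4a3 Tpm1 (0.89), Arpp19, Peli1, Rheb and Sik3. Nr4a1 and Nr4a3 had an r of 0.76 with each other. The closest to Nr4a2 were Prdm16 (0.67), Ttn, Nfia, Prkca and Gm11655, while its r was -0.05 with Nr4a1 and 0.02 with Nr4a3. The points share libraries and differ in depth, and r is given as a description.

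Nr4a2 was also viewed in single nuclei. Among other GABAergic nuclei 28 in US+ and 49 in US- held at least 2 Nr4a2 UMIs. Prdm16, a zinc finger gene, was found in 64.3% of these in US+ and 63.3% in US-, but in 5.95% of US+ and 4.81% of US- nuclei without Nr4a2. Tafa4, a secreted protein gene, was in 60.7% of them in US+ and 55.1% in US-, against 7.26% of US+ and 8.19% of US- nuclei without Nr4a2. Both genes were singled out after their values were seen and depth was not matched, so these shares are a description.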

How the data were processed

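Single nuclei from 2 libraries, 1 for US+ and 1 for US-, were profiled with a 3' droplet kit. The deposited matrices hold raw UMI counts per gene and barcode. Alignment and counting by the authors used Cell Ranger (version 6.1.1) and the mm10 build, with reads brought to the depth of the least saturated library. The pipeline was run with its default settings, and the sources used here do not say separately how intronic reads were treated.

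From these counts, nuclei with 200 to 7500 genes and at most 5% mitochondrial UMIs were kept, the limits of the study. No doublet caller was run. UMIs were summed per library, class or population and divided by the sum over all genes (CPM). Populations were assigned in a fixed order, each nucleus to the first whose markers it held, mostly at 2 or more UMIs. Ratios are US+ over US- and were given where a gene had at least 50 UMIs over both libraries, with exact conditional binomial intervals. CPM intervals are exact Poisson and shares exact Clopper-Pearson intervals. Interval coverage was checked only on simulated Poisson counts, which the intervals assume, so the check says nothing about UMIs clustered in single nuclei. Thinning drew UMIs at random without replacement. With 1 library per group no test was made.

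The named genes were the 3 members, the 2 highest and 2 lowest of each list by ratio over all nuclei with at least 100 UMIs, and the 5 genes closest to each member. Genes past 1.5-fold in striatal-type nuclei and those in nuclei with Nr4a2 were named after their values were seen. The members, populations and lists were chosen with earlier results of these data known. The Drd2 target and the Rarb, Rxra and Rxrg receptors also stand in other lists or in the class rule. Promoter sequence came from the RefSeq promoter table (GRCm38.p6) and was searched on both strands. All 3 members matched by symbol. Analyses used Python 3.11.15, numpy 2.4.6, scipy 1.17.1, matplotlib 3.10.9 and, for TMM factors, R 4.3.3 with edgeR 4.0.16.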

Additional observations from a re-analysis of the deposited data

Results flagged for a closer look

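The Nr4a1 ratio of US+ over US- was 9.23 (7.77 to 11.0) in striatal-type nuclei and 1.53 (1.38 to 1.70) in other GABAergic nuclei, so that the counting intervals of these classes were apart. Among populations, ratios above 1 in Drd1 only nuclei (13.7), Tshz1 and Foxp2 nuclei (9.22), Drd2 only nuclei (6.12) and Meis2 nuclei (5.73) stood opposite a ratio below 1 in galanin nuclei (0.441). With 1 library per group none of these differences was tested.

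Nuclei that the filter removed, 176 in US+ and 62 in US-, belong to no comparison above. Their median depth was 40568.5 UMIs in US+ and 40013.5 UMIs in US-. Nr4a1 had 24.9 CPM (206 UMIs) in them in US+ against 7.47 CPM (18 UMIs) in US-, a ratio of 3.33 (2.05 to 5.73). The Nr4a3 ratio was 7.71 (2.92 to 28.8), from 106 UMIs in US+ and 4 UMIs in US-.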

How the results depend on the processing

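No paired analysis was possible because each group has 1 library, and for the same reason no replicate could be left out. Of 68 alternative values for the 9 class ratios, 51 stayed within the counting interval. TMM scaling and the stricter filter on nuclei moved none beyond it. The Nr4a1 ratio in striatal-type nuclei was 7.24 with no filter on nuclei, 11.6 after thinning to 2000 UMIs and 12.6 without the top 1% of nuclei for the gene. Over all nuclei it was 2.48 with equal class weights and 2.27 without the top 1%, and for Nr4a3 these values were 5.02 and 11.7. Without the top 1% the Nr4a3 ratio was 47.0 in striatal-type and 8.16 in other GABAergic nuclei, and the Nr4a2 ratio 1.30 over all and 1.37 in other GABAergic nuclei. Where few nuclei carry a UMI this alternative by construction takes most of them away. With every nucleus weighted equally, the Nr4a2 ratio was 1.18 over all and 1.14 in other GABAergic nuclei, the Nr4a1 ratio 1.86 in other GABAergic nuclei, and 1.25 in the remaining ones, which had 0.854 from summed UMIs. The cause was not tested. Stricter class limits gave 1.92 for Nr4a1 in other GABAergic nuclei.

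An alternative chosen after seeing the data, without the Meis2 and the Tshz1 and Foxp2 populations, turned the Nr4a1 ratio of other GABAergic nuclei to 0.944 and brought that of Nr4a3 to 1.95. A second, striatal-type nuclei with Slc17a6 at 0, gave 10.7 for Nr4a1 and 14.9 for Nr4a3. Thinned to 1000 UMIs, the share of nuclei with Nr4a1 was 6.35 times that of US- in striatal-type and 2.13 times in other GABAergic nuclei of US+.

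List counts moved mainly in striatal-type nuclei. At a fold of 2, the inducers had 1 higher and 0 lower, the partners 0 lower, the targets 1 higher and 0 lower, and the other receptors 3 higher and 2 lower (2 higher over all nuclei). With at least 200 UMIs the targets had 1 higher and the receptors 3 higher and 2 lower, and with at least 1 UMI in each library the receptors had 10 higher.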
